A study of Mus musculus with 6 samples.

Results

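The Agilent mouse array used here carries probes that are named by a stretch of the genome and a strand in place of a transcript. These position-named probes off chromosomes X and Y are described here: 15617 of the 55681 non-control probes, or 28.0%, chosen by their names alone. A further 577 position-named probes lie on X and Y and were left out. The names give coordinates on the build mm9 (the design build in the file headers). They cover 3390 regions on 19 chromosomes, from 62 to 7128487 bases long with a median of 7451. The suffixes F and R, read here as forward and reverse strand, split the regions into 4432 region-strands with 1 to 10 probes each (median 3), and 1042 regions have probes for both strands. The working name of the set, intergenic noncoding probes, could not be checked against an mm9 gene annotation here, and the probes are called by their positions.

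Long noncoding RNAs from regions without known genes are RNA polymerase II transcripts that code for no protein, are often present at low levels and are often restricted to few cell types. TIF1b, encoded by Trim28 and also called KAP1, is a corepressor that KRAB zinc finger proteins bring to DNA. It recruits SETDB1, which methylates histone H3 at lysine 9, and HP1 proteins, and is known for silencing endogenous retroviruses and transcripts that start in them.

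RNA came from c-Kit+ Sca1+ Lineage- (KSL) cells, a sorted progenitor population in which blood stem cells are found, from mice on a C57BL6 background. The fetal liver (FL) groups carry Tie2-Cre with Tif1bw/w (wild type, WT, 1 array) or Tif1bf/f (knockout, KO, 1 array). The adult bone marrow (BM) groups carry CreERT with Tif1bw/w (WT, 2 arrays) or Tif1bf/f (KO, 2 arrays), so the WT mice of both tissues carry a Cre as well. The genotype labels of BM replicate 2 read Tif2bw/w and Tif2bf/f and were taken as the same gene. Some description lines of BM replicate 1 name Hp1aKD and Hp1gKD c-Kit+ Lineage- cells, without Sca1. These lines conflict with the KSL and Tif1b labels of the same arrays. Groups and cell type were taken from the other labels, and the conflict could not be settled here. Tie2-Cre is active in the endothelial and blood lineages and CreERT is a form of Cre that is switched on by tamoxifen. No promoter for CreERT, inducing treatment, age or share of recombined cells is given in the sources used here. Nothing in the labels says that replicates came from separate animals, so p-values measure the spread between these samples, which may be technical. Each of 3 slides held the WT and KO arrays of 1 tissue and replicate number.

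Values are log2 of the background-corrected signal minus the 75th percentile of its array, so 0 is the level that 75% of probes lie below. A level is compared only with the level of the same probe on another array, since brightness differs between probes. The 75th percentile lay at signals of 211 to 743, highest on the BM replicate 2 arrays. A probe counted as detected where Agilent's flag called it well above background. In these bulk samples, fewer cells of a type and less RNA per cell cannot be told apart.

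Position-named probes were detected less often than probes named by a RefSeq transcript on each array. In FL, 3808 members (24.4%) were detected in WT and 3820 (24.5%) in KO. In BM replicate 1 the KO array detected 4182 (26.8%), and in BM replicate 2 the WT and KO arrays detected 6450 (41.3%) and 6331 (40.5%). The array labelled BM WT replicate 1 detected 4899 (31.4%) by the flags of its scanner file and 4266 (27.3%) by its column of the authors' value table. With the table column, WT and KO of a slide lay closer than BM replicate 2 lay to the other slides; with the scanner flags, WT and KO of the BM replicate 1 slide differed by more than BM KO 1 and the FL arrays did. BM replicate 2 was also highest for the 886 probes with a RefSeq noncoding accession (38.4% to 50.2% over arrays) and the 26430 with a coding accession (58.9% to 68.7%), so the detected share moved with the array as well as with the kind of probe. Tissue, slide and scan cannot be told apart for this count, since both FL arrays are on 1 slide.

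**Figure D1:**
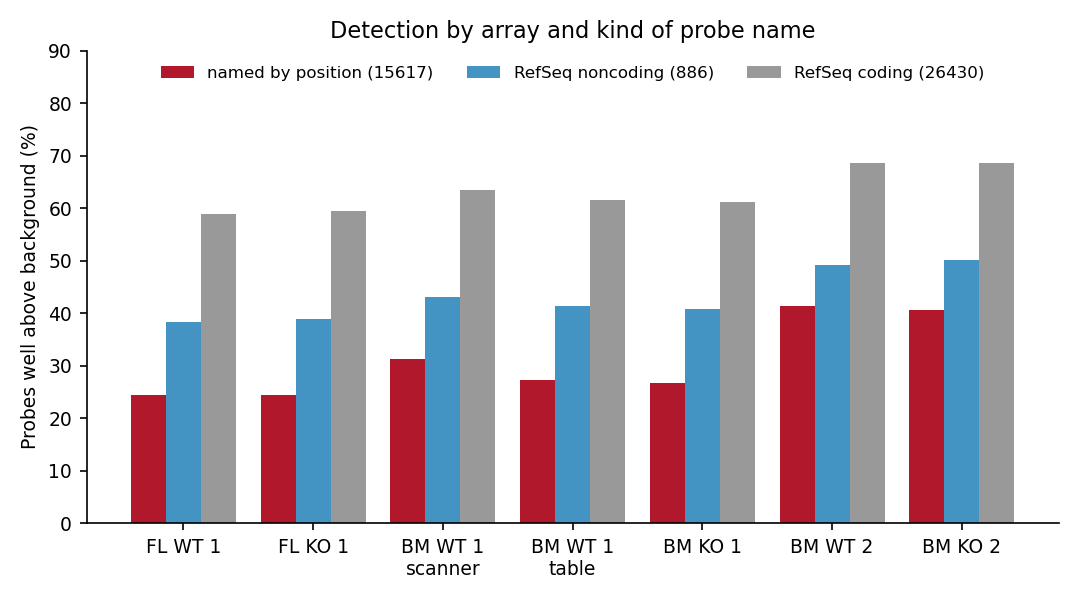
Bars give the percentage of probes well above background (y axis) on each array (x axis), for the position-named members, RefSeq noncoding probes and RefSeq coding probes. Members lie lowest on each array, between 24.4% and 41.3%, and BM replicate 2 shows the highest share.

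A total of 2979 members (19.1%) were detected on all 6 arrays and 7912 (50.7%) on none, with the scanner flags. Detection was patchy within a region. Of 3772 region-strands with 2 or more probes, 216 had each probe detected on all 6 arrays, 1346 had some and 2210 had none. Of the 1042 regions probed on both strands, 266 had a probe on each strand detected on all 6 arrays, 450 on 1 strand and 326 on neither. Probe A_30_P01026458 (chr11:22681800-22707775, reverse) is among the 6 members with the highest mean level and read 10.39 in FL WT, 10.28 in FL KO, 9.96 in BM WT 1 by the value table (9.62 by the scanner file), 9.70 in BM KO 1, 9.27 in BM WT 2 and 9.06 in BM KO 2. It was high throughout, and its KO minus WT differences in the 3 pairs (-0.11, -0.26 and -0.20) were small beside the 1.0 that marks 2-fold. A_30_P01020015 (chr17:39982023-39983277, forward), also among those 6, had KO minus WT differences of 0.01, 0.06 and 0.01.

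The array labelled BM WT replicate 1 stands apart, and most results that use it are given from both of its sources. The difference of KO effects and the levels of some probes are given with the value table column alone. For the other 5 arrays the value table equals the scanner signal divided by a constant, and 0% of the 2979 members detected on all arrays were 2-fold apart between the sources. For BM WT 1, 229 of them were at least 2-fold higher and 217 at least 2-fold lower in the scanner file, 15.0% in all, with r = 0.946 across members (a description over probes of 1 array). Trim28 read 5.97 in FL WT, 5.55 in BM WT 2 and 5.18 in BM WT 1 by the value table, against 1.68, 1.28 and 0.75 in the KO arrays of FL, BM 1 and BM 2. In the BM WT 1 scanner file it read 2.45, between the WT and KO values. The 10 HSC markers had medians of 2.86 to 3.46 on the other 5 arrays and in the table column, and -0.43 in that scanner file. All 9 B-lymphoid markers were higher by the scanner file (median 3.39) and lower by the table column (median -2.82). The part of these differences in the members' results was not tested.

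**Figure D2:**
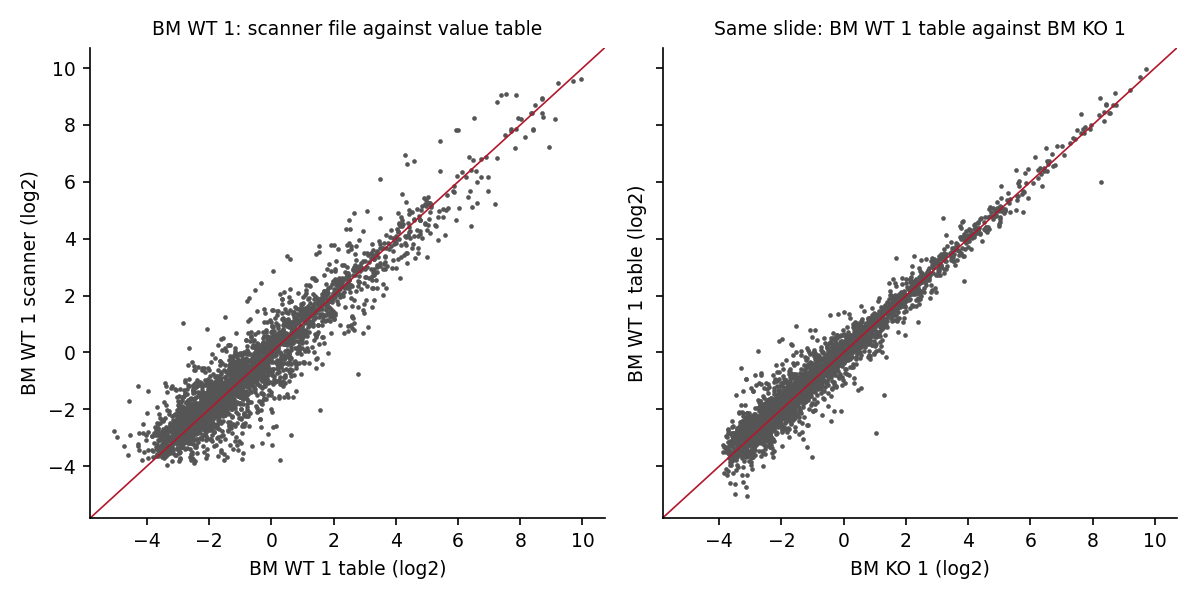
Each point is 1 of the 2979 members detected on all 6 arrays, with log2 levels over the array's 75th percentile on both axes and the line of equality in red. On the left, the scanner file of BM WT 1 scatters against its value table column (15.0% of members 2-fold apart), and on the right the table column is set against BM KO 1 of the same slide.

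The first comparison asks which of these transcripts differ in BM when Trim28 is deleted. With the value table column, 7 members were higher in KO and 0 lower of 4432 tested, and 4 of the 7 lie in 1 region of chromosome 2. Over all 26712 probes tested the share called was 0.232% higher and 0.116% lower (limma, Benjamini-Hochberg adjusted p under 0.05), against 0.158% of members. The median difference of the tested members was -0.04, against -0.06 for all probes. By an unadjusted limma p under 0.05, 320 members passed (7.22%, against 8.92% of all probes). With the scanner file of BM WT 1, 0 of 4814 members and 0% of all 27654 probes passed limma at an adjusted p under 0.05. There, 150 members had an unadjusted limma p under 0.05 (3.12%, against 3.87% of all probes). A probe was tested where it was detected on all arrays of either genotype, so a probe that is detected in 1 genotype alone had to differ, and 6 of the 7 were above background on neither BM WT array in this source.

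The chromosome 2 region, chr2:27394711-27402186, has 5 reverse-strand and 3 forward-strand probes. The reverse-strand probe A_30_P01020651 read -4.14 in FL WT and 3.11 in FL KO; in BM it read -6.39 (table) in WT 1, 2.50 in KO 1, -7.09 in WT 2 and 2.75 in KO 2. The 3 KO arrays were high, and the 3 WT arrays were below background and did not overlap them. In BM this was a rise of 9.36 ± 0.34 on the log2 scale (SE, n = 2 against 2, limma adjusted p = 0.00852). Since it was not above background in WT, its rise is given as at least 128-fold. That bound compares the KO mean with the lowest signal that counts as above background on each WT array.

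A_30_P01019205 of the same strand read -2.78 in FL WT, 3.96 in FL KO, -6.27 (table) in BM WT 1, 3.26 in BM KO 1, -5.83 in BM WT 2 and 3.62 in BM KO 2. It was detected in FL WT but not in BM WT, and rose in BM by 9.49 ± 0.30 (limma adjusted p = 0.00852), at least 225-fold. A_30_P01027311 read -5.41, 0.30, -5.80 (table), -0.04, -5.53 and 0.52 on the same arrays in the same order. It too was above background on the KO arrays alone in this source, and rose by 5.91 ± 0.31 (limma adjusted p = 0.0197), at least 24.6-fold.

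The other 2 reverse-strand probes were detected on all 6 arrays, so their folds are measured. A_30_P01030278 read -2.09 in FL WT, 1.67 in FL KO, -2.83 (table) in BM WT 1, 1.03 in BM KO 1, -2.17 in BM WT 2 and 1.70 in BM KO 2. WT and KO did not overlap, and the rise in BM of 3.87 ± 0.38, or 14.6-fold, passed (limma adjusted p = 0.0455). A_30_P01019574 read 0.20, 2.20, -1.48 (table), 1.31, -1.05 and 1.83 in that order; its difference in BM of 2.83 ± 0.32, or 7.12-fold, did not pass (limma adjusted p = 0.0627).

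On the forward strand of the region, A_30_P01022923 was at least 2-fold higher in KO in all 3 pairs (2.69, 2.04 and 2.20), without passing in BM (limma adjusted p = 0.0671). The other 2 forward probes, A_30_P01019083 and A_30_P01027649, differed by 0.72, 0.19 and 2.62 and by 0.57, 0.37 and 1.05 in the FL pair and the 2 BM pairs. The reverse strand thus carried the larger differences, while the forward strand was close to background on most arrays.

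In the scanner file of the array labelled BM WT 1, the reverse-strand probes sat at the KO level. A_30_P01020651 read 2.34 there against 2.50 in BM KO 1, and A_30_P01019205 read 3.13 against 3.26. Over the 5 reverse-strand probes the KO minus WT difference of BM pair 1 was -0.01 to 0.17 with the scanner file and 2.79 to 9.52 with the value table, so the comparison of that pair rests on which source is read. The FL pair and BM pair 2 do not use this array.

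**Figure D3:**
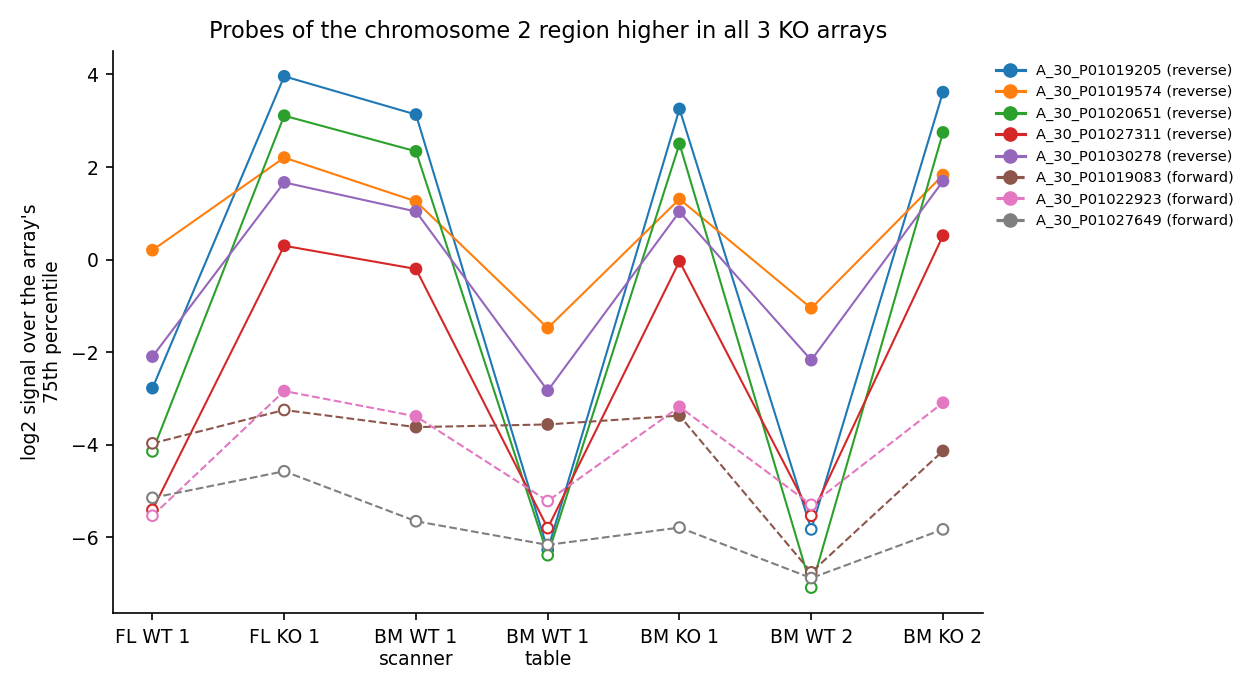
Log2 level over the array's 75th percentile (y axis) of the 8 probes of the chromosome 2 region on each array (x axis), with BM WT 1 from both sources; lines join the values of 1 probe, solid for the reverse and dashed for the forward strand, and open points are not above background. Reverse-strand probes are higher in each KO array than in FL WT, BM WT 2 and the BM WT 1 table column, and the BM WT 1 scanner file lies at the KO level.

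The other members that rose in BM lie in 3 regions. A_30_P01026084 (chr12:33606225-33638225, forward) read -5.46 in FL WT, -2.58 in FL KO, -6.51 (table) and -4.71 (scanner) in BM WT 1, -2.67 in BM KO 1, -6.49 in BM WT 2 and -3.15 in BM KO 2. It was above background on the 3 KO arrays alone and rose by 3.59 ± 0.29 in BM (limma adjusted p = 0.0382), at least 2.77-fold. Of the 4 forward probes of that region, 3 were at least 2-fold higher in KO in all 3 pairs, and for these 3 the scanner file of BM WT 1 also left KO at least 2-fold higher (2.04, 3.35 and 1.43).

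A_30_P01024946 (chr6:82608223-82669023, forward) read -4.65 in FL WT, -1.71 in FL KO, -6.16 (table) and -1.76 (scanner) in BM WT 1, -2.25 in BM KO 1, -5.33 in BM WT 2 and -2.10 in BM KO 2. It rose by 3.58 ± 0.36 in BM with the table (limma adjusted p = 0.0455), at least 4.62-fold, whereas the scanner file put pair 1 at -0.49. A second of its 10 forward probes, A_30_P01019176, was higher by 3.50, 2.19 and 1.94 in the 3 pairs. A_30_P01023741 (chr5:107503800-107515575, forward) differed from these: it read -2.68 in FL WT and -2.66 in FL KO, a difference of 0.02. In BM it read -6.06 (table) and -2.18 (scanner) in WT 1, -1.89 in KO 1, -6.84 in WT 2 and -2.42 in KO 2. Its rise in BM was 4.29 ± 0.38 (limma adjusted p = 0.0382), at least 4.66-fold, and 0 of its 4 sister probes on the strand moved 2-fold the same way in either BM pair.

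No member fell in BM at an adjusted p under 0.05. Those with the most negative pair differences did not pass: A_30_P01020400 (chr8:82854412-82919089, reverse) read -1.70 (table) in BM WT 1, -5.08 in KO 1, -4.03 in WT 2 and -7.23 in KO 2, a difference of -3.29 ± 1.02 (limma adjusted p = 0.408). A_30_P01031178 (chr13:99870660-99877535, forward) differed by -2.66 ± 0.43 (limma adjusted p = 0.128). A_30_P01031647 (chr17:6514179-6517720, reverse) read -0.81 (table) and -6.09 (scanner) in BM WT 1, -5.90 in KO 1, -3.49 in WT 2 and -6.99 in KO 2, a difference of -4.30 ± 0.94 that did not pass (limma adjusted p = 0.229). In the scanner file this probe was as low in WT 1 as in the KO arrays. A_30_P01025069 (chr7:88668435-88674440, forward) differed by -3.17 ± 0.65 (limma adjusted p = 0.205), and A_30_P01022454 (chr17:80133213-80144417, forward) by -2.89 ± 0.77 (limma adjusted p = 0.318).

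The count of 7 depended on the arrays and on the model. With the value table and 1 BM array left out in turn, the number that passed changed, while the 7 stayed higher in KO. Their estimates ran from 3.16 to 9.71. The lone array left in a group is assumed to vary like the other group in these fits. With the slide, which is also the replicate number, as a block, 71 members passed (41 higher and 30 lower), the 7 among them. That is 1.60% of members, against 2.12% of all probes. The 5 lower members described above as not passing all passed with this block (limma adjusted p = 0.0196 for A_30_P01020400, 0.0216 for A_30_P01025069, 0.0286 for A_30_P01031178, and 0.041 for both A_30_P01022454 and A_30_P01031647). So did A_30_P01019574 (0.0211) and A_30_P01022923 (0.0286) of the chromosome 2 region and A_30_P01019176 (0.0314) on chromosome 6. With the scanner file the count also changed with the BM array that was left out. Several lists of cell type markers moved with genotype in BM. The summed signal of the 8 neutrophil markers, relative to the 75th percentile, was 1293 (table) and 666 in BM WT and 263 and 25.5 in BM KO. By the scanner file of BM WT 1 it was 1461, and 7 or 8 of 8 were above background on each BM array. That of the 6 megakaryocyte markers was 122 (table) and 104 in WT and 223 and 245 in KO. On BM KO 1, BM WT 2 and BM KO 2, 6 of 6 were above background. The scanner file of BM WT 1 gave 0.549, with 3 of 6 above background. Monocyte markers summed to 144 (table) and 69.8 in WT and 13.8 and 10.9 in KO. Erythroid markers summed to 21.0 (table) and 15.5 in WT and 280 and 58.5 in KO. For mast cell markers it was 23.3 (table) and 22.4 against 115 and 66.2. HSC markers summed to 374 (table) and 297 in WT and 365 and 301 in KO. In FL WT and KO, neutrophil sums were 3112 and 2991 and megakaryocyte sums 17.5 and 18.9. Their part in the members' differences was not tested.

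Taking tissue and genotype in 1 model over all 6 arrays, with the value table column, 5 members were higher in KO and 0 lower of 5182 tested. The share over all 28879 probes was 0.0796% higher and 0.0139% lower (limma). The 5 were 4 of the reverse-strand probes of the chromosome 2 region and A_30_P01026084 on chromosome 12. For A_30_P01027311 the genotype effect was 5.84 ± 0.23 (SE, n = 3 against 3, limma adjusted p = 0.0155) and for A_30_P01020651 it was 8.66 ± 0.49 (limma adjusted p = 0.0292). With the table column, these 2 and A_30_P01026084 were above background on KO arrays alone. They entered the test through the KO arrays, so the filter fixed their direction. When probes had to be detected on all arrays, 1 of the 5 was tested, and it passed (limma adjusted p = 0.0134). With the 3 slides as a block the 5 kept their direction and 0 passed (limma adjusted p of 0.0772 to 0.181). They also did not pass with the scanner file of BM WT 1 (limma adjusted p of 1), nor without BM WT 1, BM KO 1, BM WT 2 or BM KO 2 in turn (limma adjusted p of 0.116 to 0.349).

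Taking the 3 pairs side by side, without a test, 25 members in 17 region-strands were at least 2-fold higher and 18 in 17 region-strands at least 2-fold lower in KO in each pair (value table column), of 7609 detected on at least 1 array. The share over all 34653 such probes was 0.71% higher and 0.407% lower, above the members' share in both directions. With the scanner file of BM WT 1 the counts were 11 and 15 of 7702 members. The share over all probes is not given for this source, so these counts are not read as a result about the members. Of the 25 higher members, 14 differed by less than 2-fold in BM pair 1 with the scanner file, and 1 was 2-fold lower. Of the 25, 18 were detected on all 3 KO arrays and 4 on all 3 WT arrays; of the 18 lower, 4 were detected on all 3 KO arrays and 8 on all 3 WT arrays. Of the 1042 regions probed on both strands, chr2:27394711-27402186 was the only region where both strands were 2-fold apart in the same direction in all 3 pairs.

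Among the lower members, A_30_P01026968 (chr1:52706748-52712402, reverse) read -2.34 in FL WT, -4.78 in FL KO, -2.70 (table) and -0.16 (scanner) in BM WT 1, -6.10 in BM KO 1, -2.68 in BM WT 2 and -5.07 in BM KO 2. The WT arrays were above background and the KO arrays were not, and the genotype effect of -2.74 ± 0.32 did not pass (limma adjusted p = 0.0987); 0 of its 4 sister probes followed 2-fold in the FL pair or in either BM pair. A_30_P01029235 (chr7:4827340-4863315, forward) was above background on all 6 arrays, so its differences are measured: 1.36 in FL WT and -0.26 in FL KO, 0.80 (table) and -1.08 in BM replicate 1, and 0.14 and -1.31 in BM replicate 2. Its genotype effect was -1.65 ± 0.24 (limma adjusted p = 0.171), and with the scanner file its pair 1 difference was 0.26. A_30_P01018763 (chr16:59556175-59603176, reverse) read -2.93 in FL WT, -4.73 in FL KO, -3.61 (table) in BM WT 1, -5.03 in BM KO 1, -3.54 in BM WT 2 and -4.90 in BM KO 2. It too was above background on the 3 WT arrays alone, and its genotype effect did not pass (limma adjusted p = 0.123).

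**Figure D4:**
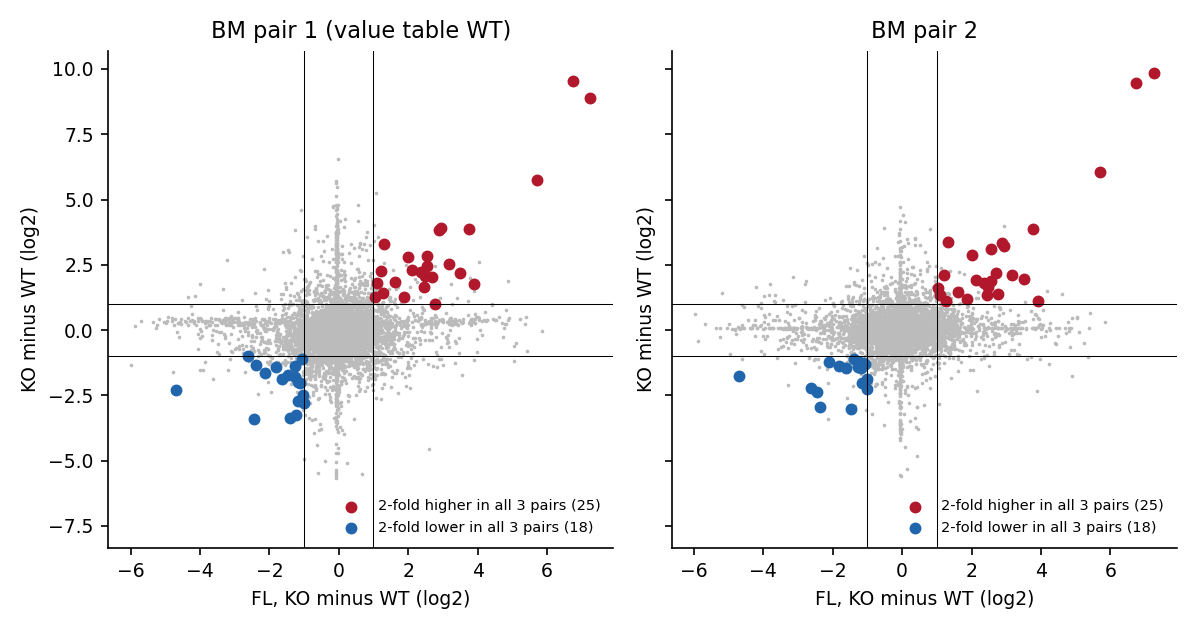
KO minus WT (log2) in FL on the x axis against BM pair 1 with the value table (left) and BM pair 2 (right) on the y axis, for the 7609 members detected on at least 1 array; lines mark 2-fold. The 25 members in red and 18 in blue pass 2-fold in all 3 pairs, and the 3 points farthest to the upper right are reverse-strand probes of the chromosome 2 region.

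In FL there is 1 array per genotype, so differences have no test and no replicate check. Of 4335 members detected on either FL array, 345 were at least 2-fold higher in KO and 417 at least 2-fold lower. The share over all 26068 probes was 5.93% higher and 5.57% lower, and that of members was 7.96% and 9.62%. Among the 3292 members detected on both FL arrays, 60 were 2-fold higher (1.82%) and 78 lower (2.37%). Of all probes detected on both, 2.44% were higher and 2.04% lower, so the members' larger share was not seen there for higher probes and was small for lower ones. Most of the 2-fold members were thus detected on 1 FL array alone. Of the 345 and 417, 132 and 168 were detected on 1 of the 6 arrays in all. The median difference of members was 0.02, against -0.05 for all probes.

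The largest FL differences upward were again in the chromosome 2 region: 7.25 for A_30_P01020651 (at least 83.3-fold), 6.74 for A_30_P01019205 (106.6-fold, measured) and 5.71 for A_30_P01027311 (at least 11.9-fold). All 4 sister probes of each moved 2-fold the same way in FL. The next, A_30_P01027284 (chr14:33923944-34003394, forward), read -5.04 in WT and 0.82 in KO, and 0 of its 8 sister probes followed. A_30_P01031831 (chr6:140639450-140662200, forward) read -5.11 and 0.28, at least 11.7-fold, and A_30_P01017945 (chr7:140016236-140016772, reverse) read -5.43 and -0.02, at least 9.52-fold; both were above background on the FL KO array alone. Downward, A_30_P01024111 (chr3:68867193-68876128, forward) read 0.50 in WT and -5.48 in KO, at least 14.0-fold, was below background on all 4 BM arrays, and had 0 of 9 sister probes following. A_30_P01022155 (chr5:106125123-106125822, reverse) read 0.41 and -5.47, at least 13.1-fold, with its 1 sister probe not following. None of the 6 largest downward differences had a sister probe 2-fold lower in FL.

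Whether the KO effect differs between BM and FL was tested in the interaction contrast of all 6 arrays. With the value table column 0 of 5182 members and 0% of 28879 probes passed (limma adjusted p under 0.05). An unadjusted limma p under 0.05 was seen for 551 members (10.6%, against 7.46% of all probes). The test assumes that the lone FL arrays vary like the BM arrays. With quantile normalization 134 members passed (2.59% of members, against 1.15% of all probes). The number that passed also changed when BM WT 2 or BM KO 2 was left out. The shares over all tested probes in those fits are not given here, so this change is not read as a result about the members. For A_30_P01023741, with a difference of 0.02 in FL and a rise in BM, the interaction of 4.27 ± 0.68 did not pass (limma adjusted p = 0.243).

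More members passed between tissues than between genotypes. BM minus FL was fitted over all 6 arrays with genotype in the model, and differences are given relative to the median of all tested probes, which was -0.30 with the scanner files and -0.28 with the value table column, and 0.02 and -0.02 when the 75th percentile was taken over probes detected on all arrays. With the table, 424 members were higher in BM and 954 lower of 5182 (over all probes, 8.31% and 12.9%). With the scanner files, 53 were higher and 87 lower of 5463 (over all probes, 0.997% and 1.2%). The split moved with the scaling. It was 543 higher and 725 lower with quantile normalization and 514 and 577 with the percentile over detected probes for the table, and 110 and 98 and 79 and 61 for the scanner files. All probes turned to mostly higher under these scalings with the table (3107 higher and 2753 lower, and 3235 and 2249), while the members stayed mostly lower. The median member lay -0.14 (table) and -0.06 (scanner) from the median of all probes, and was below it under each scaling tried.

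Of the 139 members that passed with the scanner files and were tested in both sources, 138 passed with the table too, all in the same direction. With the table, 1373 of those tested in both passed. The fits share every array but BM WT 1, so agreement between the sources is not independent. Both FL arrays are on 1 slide, are fetal and carry Tie2-Cre, so tissue, age, Cre and slide cannot be told apart. With the slide as a random block, 256 members passed with the table (4.94%, against 4.54% of all probes) and 127 with the scanner files (2.32%, against 2.04%). Leaving out 1 BM array gave 295 to 455 members with the table (439 without BM WT 1, 315 without BM KO 1, 295 without BM WT 2, 455 without BM KO 2). With the scanner files it gave 439 without BM WT 1 and 0 without each of BM KO 1, BM WT 2 and BM KO 2. The shares over all probes in these fits are not given here, so the counts are not read as a result about the members. Hepatocyte markers differed between arrays: 5 and 3 of 6 were above background in FL WT and KO and 1 or 2 in BM. Their summed signal relative to the 75th percentile was 10.1 in FL WT and 2.05 in FL KO. In BM it was 0.523 to 3.44 by the table source, so FL KO lay within the BM range, and 0.22 by the scanner file of BM WT 1. The level of Alb was -0.42 and -2.19 in FL and -5.78 to -6.95 in BM. Neutrophil markers summed to 3112 and 2991 in FL and 25.5 to 1293 in BM by the table source, with 1461 by the scanner file of BM WT 1. Such a sum rests most on the brightest markers, here Mpo (10.8 and 10.9 in FL). The 8 did not all follow it: Ngp read -3.62 and -1.75 in FL WT and KO. In BM WT 1, KO 1, WT 2 and KO 2 it read -0.72 (table), -3.18, -0.82 and -1.86. The part of these in the members' differences was not tested.

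A probe entered the tissue test where a group of 1 tissue detected it on all its arrays, so a member detected in 1 tissue alone had to differ, and its direction was fixed by the filter. Of the higher members, 208 of 424 (table) and 34 of 53 (scanner) were on no FL array above background, and of the lower ones 181 of 954 and 53 of 87 were on no BM array. The p-values of such members, named below as below background in 1 tissue, are given with that limit.

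Several BM-high members sit together. A_30_P01022510 (chr10:96103732-96103867, forward) read -5.15 and -5.18 in FL WT and KO, and 0.63 (table; 0.30 scanner), 0.17, -0.02 and 0.46 in BM WT 1, KO 1, WT 2 and KO 2. It was below background in FL and above it on all BM arrays. The relative difference was 5.75 ± 0.26 (SE, n = 4 against 2 arrays, limma adjusted p = 0.0029) with the table, at least 12.1-fold. With the scanner files it was 5.69 ± 0.26 (limma adjusted p = 0.0104), at least 11.4-fold. The arrays lie on 3 slides, with both FL arrays on 1. For the other probes given below with a tissue p-value from the table, the slide as a random block gave limma adjusted p of 0.0113 to 0.0395. For A_30_P01022510 this block gave limma adjusted p of 0.0113 (table) and 0.0109 (scanner). It is the only probe of its region-strand, and 2 of the 3 forward probes of chr10:96098058-96098623, which lies 5109 bases away, passed in the same direction in both sources.

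On chromosome 6, the 3 reverse-strand probes of chr6:31115515-31168433 all rose in BM against FL, by 3.94 to 5.19 (table) and 4.28 to 5.55 (scanner) relative to all probes. A_30_P01033525 read -5.25 and -5.31 in FL, and -0.12 (table; 1.26 scanner), -0.72, -0.65 and -0.01 in BM. It was below background on both FL arrays, so the filter fixed its direction, and the difference was at least 7.53-fold (table, limma adjusted p = 0.00297). The region chr6:31078802-31079644, on the same strand 35871 bases away, had 2 of 3 probes pass in both sources, among them A_30_P01033174 at 4.96 (table, limma adjusted p = 0.0149). The third, A_30_P01019423, was detected in FL and differed by 1.16 (table) without passing.

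The forward strand of chr16:43623581-43642715 had 7 of 8 tested probes pass with the table and 6 of 9 with the scanner files, all higher in BM. A_30_P01022305 read -4.82 and -3.36 in FL, and -0.65 (table; -0.06 scanner), -0.61, 0.14 and 0.84 in BM. Its relative difference was 4.30 ± 0.52 (limma adjusted p = 0.012) with the table and 4.46 ± 0.54 (limma adjusted p = 0.0353) with the scanner files. The regions chr16:43623175-43624069 and chr16:43635730-43639104 overlap it on the same strand, and 3 of 3 probes of each passed with the table. Since these regions overlap, their probes are not independent, and whether they report 1 transcript was not tested. Smaller shifts ran over whole region-strands too: 10 of 10 probes of chr4:129497990-129515290 (forward) passed with the table, at a median of 1.54, and 9 of 10 of chr17:26911397-26917047 (forward), at 1.68. With the slide as a random block, 2 of 10 passed in each of these. For the same block 4 of 8 passed in chr16:43623581-43642715 and 1 of 3 in chr16:43635730-43639104 (table), and 1 of 3 in chr6:31078802-31079644 in either source.

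Of the members that passed between tissues, the largest difference was a lower level in BM. A_30_P01025884 (chr8:26870059-26870530, forward) read 0.88 and -0.43 in FL WT and KO, and -6.06 (table; -6.45 scanner), -6.27, -7.29 and -7.23 in BM. It was below background on each BM array, and fell by 6.66 ± 0.52 relative to all probes (table, limma adjusted p = 0.00409), at least 25.2-fold. The region chr2:174088550-174109425 had 5 of its 6 reverse-strand probes tested, and all 5 fell in both sources, with differences of -2.43 to -5.51 (table). A_30_P01030153 read -0.24 and -0.39 in FL, and -5.27 (table, with -6.31 by the scanner file), -6.08, -6.09 and -6.97 in BM. It was below background on each BM array, so the filter fixed its direction, and it was at least 17.3-fold lower there (limma adjusted p = 0.0035). Its WT and KO values differed by 0.16 in FL. A forward-strand probe of the region, A_30_P01018189, fell too, so the region is 1 of 3 in which probes of both strands passed in the scanner fit. The others are chr14:76912477-76931702 and chr1:162965309-162970704, and all 3 were lower in BM. With the table, probes of both strands passed in 89 of the 1042 regions probed on both strands. Both strands were lower in 65, both higher in 8 and opposite in 17, and a region can count in more than 1 of these.

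A_30_P01021859 (chr2:155269145-155303251, forward), A_30_P01028051 (chr1:20669157-20672643, forward) and A_30_P01021023 (chr17:88890039-88905680, forward) fell, with differences of -5.64, -5.57 and -5.46 relative to all probes with the table (limma adjusted p of 0.0029, 0.00297 and 0.00301). Each was detected in FL and on no BM array, so the filter fixed its direction. Of the tested sister probes of A_30_P01021859, 1 of 5 passed in the same direction, and of those of A_30_P01021023, 0 of 2; no sister probe of A_30_P01028051 was tested. Broader falls were seen on the reverse strand of chr17:35080914-35090009, with 6 of 7 probes at a median of -2.13, and on the forward strand of chr5:74487385-74497428, with 9 of 10 at -1.05 (both table). With the slide as a random block these counts were 1 of 7 and 0 of 10.

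The neighbouring reverse-strand regions chr8:82836971-82849309 and chr8:82854412-82919089, 5103 bases apart, differed with tissue, and with genotype without passing. A_30_P01029486 of the first read 2.16 in FL WT, 1.14 in FL KO, 0.49 (table) and 3.39 (scanner) in BM WT 1, -1.98 in BM KO 1, -1.10 in BM WT 2 and -2.98 in BM KO 2. Each KO array lay below the WT array of its slide, and the BM arrays of the table source lay below the FL arrays. All 6 probes of the regions fell in BM against FL with the table, with differences of -2.76 to -3.56 relative to all probes, and 0 of 6 passed with the slide as a random block or with the scanner files, where BM WT 1 read above both FL arrays for A_30_P01029486. The KO minus WT difference of A_30_P01029486 was -1.02 in FL, -2.47 in BM pair 1 and -1.88 in BM pair 2, and did not pass (limma adjusted p = 0.37 in BM and 0.482 over both tissues), though in BM it did with the slide as a block (0.041).

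**Figure D5:**
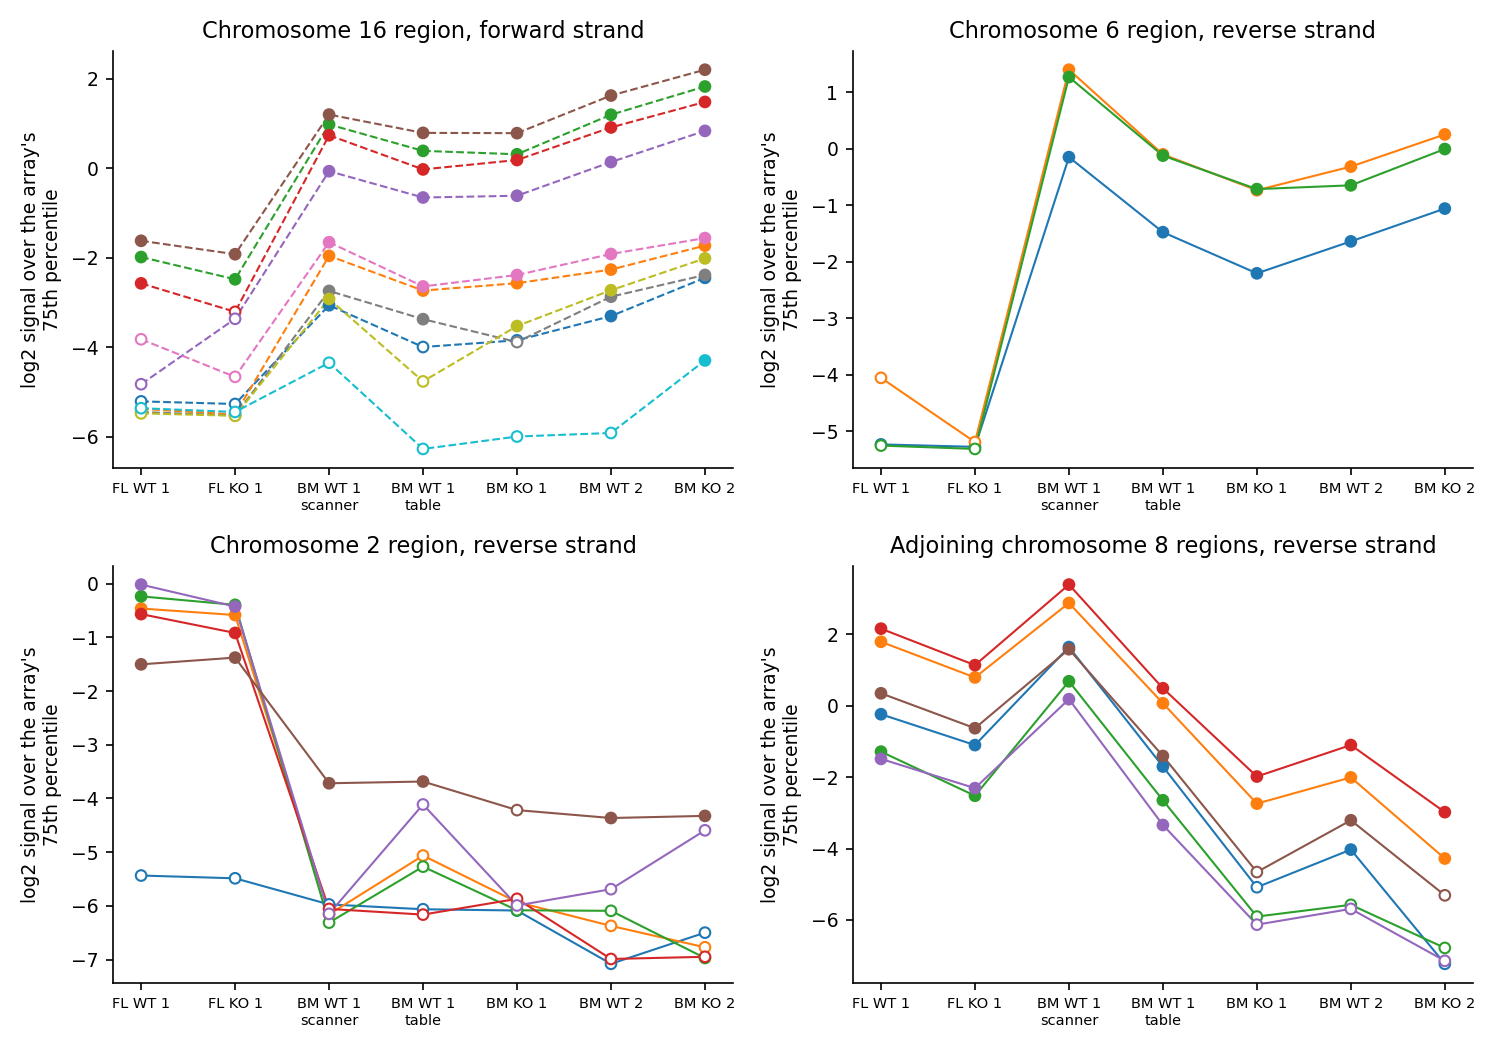
Log2 level over the array's 75th percentile (y axis) on each array (x axis, BM WT 1 from both sources) of the probes of the chromosome 16 and chromosome 6 regions higher in BM, the chromosome 2 region lower in BM and the adjoining chromosome 8 regions; lines join the values of 1 probe and open points are not above background. In the first 3 panels the probes that passed move together between FL and BM, and on chromosome 8 each KO value lies below the WT value of its slide.

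Probes to the same region and strand differed in the same direction more often than probes to opposite strands of a region. For BM KO minus WT (table), 71.8% of 4197 same-strand probe pairs and 56.8% of 2377 opposite-strand pairs had the same sign, with r = 0.650 and 0.333 across pairs. For BM minus FL (table) the shares were 76.6% and 64.5%, with r = 0.634 and 0.194. For the FL pair, among members detected on both arrays, they were 67.2% and 56.5%. Probe pairs share arrays and regions, so these are descriptions. Of 2503 same-strand pairs with at least 1 probe 2-fold apart between BM and FL, both probes were so in the same direction in 38.4%. For KO minus WT in BM this held in 34.9% of 415 pairs. These shares count pairs of any 2 probes of a region-strand, and not single probes. In most such pairs the 2 probes were thus not both 2-fold in the same direction, unlike on the reverse strand of the chromosome 2 region.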

How the data were processed

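RNA was hybridised to 1-colour Agilent arrays, 1 per sample. Per the file headers, the deposited scanner files hold an intensity per spot, background-corrected by Agilent Feature Extraction 10.7.1.1 (version per the submitters' processing notes), and a flag for spots well above background. The authors' deposited value table holds a linear ratio per probe, with column medians of 0.0705 and 0.0709 (FL WT and KO), 0.057 and 0.056 (BM WT and KO 1) and 0.063 and 0.064 (BM WT and KO 2). For 5 arrays 100% of probes with a ratio of at least 0.1 lie within 1% of the scanner signal over a constant, so scale and direction are known and no centring was seen; for BM WT 1 the share is 1.40%, and its origin is unknown. There are 0 unused value columns.

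Values are log2(gProcessedSignal) minus the array's 75th percentile, without control and outlier spots. For the table column of BM WT 1 a level above -3.7 stands in for the flag (99.1% agreement with the flags of BM KO 1, whose column matches its scanner file). Tests used limma 3.58.1 in R 4.3.3 (package data.table, version 1.17.8) over all probes detected on all arrays of at least 1 group, with Benjamini-Hochberg adjustment over all of them and a threshold of 0.05; tables were made with Python 3.11.15, numpy 2.4.6 and pandas 2.3.3. The fits were run on simulated arrays with known changes, independent noise and no slide effect. That run checked the direction and size of the estimates, and not the p-values of these arrays. Where a group is below background on all arrays, a fold is "at least" the ratio to the lowest signal above background.

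Same-numbered BM arrays shared a slide, and with 2 pairs the correlation of their deviations was 0.186 (scanner) and 0.694 (table); the block is this slide. Members were named by a rule: the 6 brightest; in BM, up to 10 that passed in each direction, filled to 5 by pair difference; the 6 with the largest FL difference and the 6 with the largest tissue difference in each direction; up to 10 in each direction that were 2-fold in all 3 pairs; the 3 in each direction that differ most between sources; and regions where both strands moved. Their sister probes and neighbouring regions are described with them. Chromosome 18 is counted, not named. Members and lists were chosen with earlier results of these data known. Probe sequences and an mm9 genome were not used here.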

Additional observations from a re-analysis of the deposited data

How the results depend on the processing

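Counts here are members that passed or moved 2-fold. They are given without the shares over all probes and describe how the calls moved, not a result about the members. Without 1 array in turn they ranged from 0 to 418 for BM KO minus WT with scanner files, from 3 to 160 with the table, from 0 to 0 for the genotype effect, from 0 to 439 and 295 to 455 for BM minus FL (scanner, table) and from 0 to 64 for the difference of KO effects. BM KO minus WT with the table gave 3 under quantile normalization, 2 with the percentile over detected probes, 2 without a filter, 0 when probes had to be detected on all arrays, 2 as means per region and strand, and 71 with the replicate block. The genotype effect gave 2 with detection on all arrays, 2 per region and strand, 0 with the replicate block and 0 from the scanner file. BM minus FL with scanner files gave 31 per region and strand, 24 with normexp and 0 with WT arrays only; with the table it gave 545 without a filter, 409 per region and strand, 256 with slide as a random block and 772 with WT arrays only. The difference of KO effects gave 134 under quantile normalization. The FL count of 762 became 1888 without a filter, 138 with detection on both arrays, 150 with normexp and 124 per region and strand. Members on all 6 arrays became 5542 with the weaker flag gIsPosAndSignif. Testing means per region and strand, or fewer probes, lowers counts by construction; the other causes were not tested. The replicate block of the scanner fit gave 0. Between the sources of BM WT 1, 8 of 35 named members tested in both had opposite signs for BM KO minus WT and 8 of 54 for BM minus FL. Normexp on mean signals was not run; normexp on median signals was chosen after seeing the data. The array number, 1 or 2 per group, limits precision.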

Other observations

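A further BM region lies near the threshold and was chosen after its values were seen. The 3 reverse-strand probes of chr17:84350367-84351803 had median KO minus WT differences of 0.80 in FL, 3.29 in BM pair 1 (table) and 3.52 in BM pair 2. A_30_P01021773 read -3.82 (table) in BM WT 1, -0.261 in BM KO 1, -3.30 in BM WT 2 and 0.583 in BM KO 2, and differed by 3.72 without passing (limma adjusted p = 0.0515). A_30_P01027946, detected on all 6 arrays by the table source, read -1.86 in FL WT and -1.50 in FL KO, -1.64 (table) and 1.65 in BM replicate 1, and -0.982 and 2.54 in BM replicate 2 (limma adjusted p = 0.0768). With the slide as a block both passed (limma adjusted p = 0.0196). In the scanner file of BM WT 1 this probe read -5.97, so there, unlike in the chromosome 2 region, the array lay farther from KO than the table column did.

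The forward strand of chr17:84397891-84412748, 46088 bases away, differed between tissues. All 3 of its probes were higher in BM with the table, by 3.28 to 3.52 relative to all probes, and 0 of 3 passed with the scanner files. A_30_P01025123 read -0.66 and -1.31 in FL, 2.80 (table) and -0.74 (scanner) in BM WT 1, 2.20 in BM KO 1, 2.58 in BM WT 2 and 1.42 in BM KO 2, so the scanner file of BM WT 1 lay at the FL level. A_30_P01026746 (chr8:129336539-129400338, reverse) was 2-fold higher in KO in each pair with the table (3.91, 1.75 and 1.12) and lower by -1.14 in BM pair 1 with the scanner file. A_30_P01029144 (chr19:46422690-46423478, reverse) read 0.29 in the table column of BM WT 1 and -3.79 in its scanner file, against -0.42 to 0.75 on the other 5 arrays.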
